A study of Mus musculus with 2 samples.

Results

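Notch signalling in the duodenal crypt was described through 8 genes of the 31205 gene symbols in the matrix: the receptors Notch1 and Notch2, the ligands Dll1, Dll4 and Jag1, and Hes1, Hes6 and Nrarp, which were taken as targets or readouts of the pathway. The members were chosen by their symbols, all 8 of which were found, and no value set which genes are members, although the set was proposed with earlier results of these data known. The series profiled cells one by one from crypts of the duodenum, the glands at the base of the villi in which intestinal stem cells reside. The mice were wild-type and fell into 2 groups, NT and ES, whose letters are not spelled out. By its title the study is about chronic stress and intestinal stem cell ageing. Each group was a pool of 5 animals and gave 1 library. The genotype, wild-type, was shared by both groups, and age and sex were not given in the sources used here. Barcodes carried the number 1 or 2, which the labels do not assign to NT or ES. The libraries are therefore called library 1 and library 2, and whether NT or ES was higher is not stated for any gene.

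Notch is a receptor on the cell surface that is activated by a ligand on a neighbouring cell. Binding leads to cleavage of the receptor, and its intracellular part enters the nucleus and, with the DNA-binding protein RBPJ, switches on targets such as Hes1. In the intestinal crypt, HES1 represses Atoh1, the factor that directs cells to the secretory fates, so cells that receive the signal stay stem or absorptive cells, while cells that make Atoh1 become goblet, Paneth or enteroendocrine cells and present DLL1 and DLL4 to their neighbours. HES6 is a relative of HES1 that counteracts it in several tissues, and NRARP is a Notch target that limits the signal.

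Cells were put in classes by the summed UMIs (unique molecular identifiers, which count captured RNA molecules) of marker genes, none of which is a member. The stem-like class was set by genes such as Lgr5 and Olfm4 and the cycling progenitor-like class by proliferation genes. The enterocyte-like class was set by genes of the absorptive cell. The early secretory-like class was set by UMIs of Atoh1, Spdef, Gfi1 or Neurog3, with mucus and hormone RNA below the goblet-like and enteroendocrine-like thresholds. It took in cells with these factors that had passed the stem threshold or held some mucus RNA. Goblet-like, Paneth-like and enteroendocrine-like cells took the genes of mucus-secreting, defensin-secreting and hormone-secreting cells. The lymphocyte-like class is not epithelial and served as the background for ligand RNA. Library 1 and library 2 gave 754 and 558 stem-like, 897 and 562 cycling progenitor-like, 648 and 722 enterocyte-like, 145 and 211 early secretory-like, 179 and 293 goblet-like, 155 and 156 Paneth-like, 73 and 93 enteroendocrine-like and 280 and 233 lymphocyte-like cells. The 7784 cells kept had median depths of 10854 and 11800 UMIs in the 2 libraries, and the lymphocyte-like cells were shallower, at 2443.5 and 3232 UMIs. All 5 epithelial markers were present in every epithelial class, mesenchymal markers summed to at most 0.45 UMIs per 1000000 UMIs of the class (CPM) in the 7 epithelial classes, and 40 barcode sequences occurred in both libraries. Lymphocyte markers summed to between 80.2 and 289 CPM in the 7 epithelial classes, against 75357 and 66243 CPM in the lymphocyte-like class. Epithelial markers reached 804 and 605 CPM in lymphocyte-like cells. Goblet markers summed to 26301 and 32512 CPM in early secretory-like cells of library 1 and library 2. They summed to 1059 and 1498 CPM in stem-like cells and to 122991 and 122007 CPM in goblet-like cells. Early secretory-like cells thus held mucus RNA at levels between those 2 classes.

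Promoter windows from RefSeq (GRCm38.p6) were found for 7 of the 8 members, all but Hes1. The 250 bases before the start are shown for 4 of them. Dll1, Dll4 and Hes6 were all higher in early secretory-like cells, and Jag1 is shown beside them as the ligand that was not. Capitals mark CAGCTG, a form of the E-box bound by basic helix-loop-helix proteins such as ATOH1, which reads the same on both strands. All are written 5′ to 3′ on the gene's own strand. The Dll1 window lies at chr17:15376933-15377182 (minus strand), the Dll4 window at chr2:119325534-119325783 (plus strand), the Hes6 window at chr1:91414039-91414288 (minus strand) and the Jag1 window at chr2:137116521-137116770 (minus strand).
Dll1: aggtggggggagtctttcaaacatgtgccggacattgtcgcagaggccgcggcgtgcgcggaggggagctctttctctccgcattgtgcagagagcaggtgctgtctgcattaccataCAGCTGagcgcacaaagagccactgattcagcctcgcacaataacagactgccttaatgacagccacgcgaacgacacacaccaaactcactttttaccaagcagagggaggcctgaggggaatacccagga
Dll4: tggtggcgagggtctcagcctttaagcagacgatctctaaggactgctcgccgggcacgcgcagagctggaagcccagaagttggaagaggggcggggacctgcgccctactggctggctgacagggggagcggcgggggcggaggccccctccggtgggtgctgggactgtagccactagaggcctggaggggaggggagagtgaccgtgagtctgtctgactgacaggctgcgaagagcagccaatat
Hes6: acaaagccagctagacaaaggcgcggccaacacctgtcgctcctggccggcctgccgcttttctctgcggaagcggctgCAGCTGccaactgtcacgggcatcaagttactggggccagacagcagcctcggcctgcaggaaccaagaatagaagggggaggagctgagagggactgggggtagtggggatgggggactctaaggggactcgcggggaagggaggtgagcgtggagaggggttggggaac
Jag1: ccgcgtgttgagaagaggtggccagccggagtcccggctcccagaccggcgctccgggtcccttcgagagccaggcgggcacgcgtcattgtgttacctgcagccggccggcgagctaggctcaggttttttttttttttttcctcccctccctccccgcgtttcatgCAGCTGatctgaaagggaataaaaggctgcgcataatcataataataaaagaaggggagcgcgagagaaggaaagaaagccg
The CAGCTG motif occurred 1 time in each of the Dll1, Hes6 and Jag1 windows shown and was not among the letters of the Dll4 window. Of 32851 promoter windows of this length, 13.0% hold it. The other RefSeq window of Hes6 holds it as well, and the other window of Dll1 does not. The letters TGGGAA, the core bound by RBPJ, were searched on both strands and occurred in none of the member windows found, against 21.6% of all windows. The promoter of Hes1 had no window and was not searched. These matches describe sequence only.

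The receptors were highest in stem-like cells among the epithelial classes. Notch1 (ENSMUSG00000026923, chromosome 2, 26457903 to 26516663, minus strand) stood at 66.0 and 65.5 CPM, in library 1 and library 2 in that order here and below, in stem-like cells. It was at 23.8 and 20.2 CPM in cycling progenitor-like cells, 7.08 and 6.69 in enterocyte-like cells, 9.89 and 14.7 in early secretory-like cells, 2.63 and 5.53 in goblet-like cells, 9.84 and 6.31 in Paneth-like cells and 34.7 and 15.1 in enteroendocrine-like cells. Both libraries therefore put stem-like cells above the other 6 epithelial classes listed here with no overlap. Stem-like cells held 46.1% and 43.1% of all Notch1 UMIs of the kept cells while holding 18.0% and 14.8% of all UMIs. Tuft-like cells, 26 and 58 by their own markers, were too few to be fitted. They held 0.72% and 2.20% of Notch1 UMIs and 0.45% and 0.95% of all UMIs. Lymphocyte-like cells, whose lineage also uses Notch1, were at 86.3 and 102 CPM.

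Each class was set against the stem-like class in 1 fit over UMI sums per library and class (edgeR's quasi-likelihood test, 2 libraries a class), and p-values were adjusted by Benjamini-Hochberg over all 12286 genes tested. Notch1 was lower than in stem-like cells in all 6 other epithelial classes by that test. The log2 ratio was -1.47 ± 0.14 (standard error) in cycling progenitor-like cells (adjusted p = 5.4e-09), where 31.3% of all genes tested passed in either direction, and -2.89 ± 0.17 in enterocyte-like cells (adjusted p = 1.45e-14), where 67.7% passed. The largest fall was in goblet-like cells, at -3.64 ± 0.28 or 12.5-fold (adjusted p = 1.15e-11), where 53.9% of all genes passed, and this ratio moved to -4.42 without library 2. Early secretory-like cells were at -2.44 ± 0.21 (33.6% of all genes passed), Paneth-like cells at -1.55 ± 0.26 (37.5%) and enteroendocrine-like cells at -1.66 ± 0.26 (47.5%), with adjusted p-values of at most 2.75e-05. The size in early secretory-like cells depended on the marker thresholds, at -3.53 with thresholds 2 times higher and -1.46 with thresholds 2 times lower, and in goblet-like cells it reached -5.40 with higher thresholds. In lymphocyte-like cells (59.7% of all genes passed) Notch1 had a log2 ratio of 0.38 with an adjusted p of 0.0622, which missed the threshold of 0.05 and passed it under several other settings, among them DESeq2 (0.61, adjusted p = 0.025). For all these ratios the spread they rest on is how far a class difference changed between 2 libraries of different treatment. The 7 contrasts share the stem-like cells.

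Notch2 (ENSMUSG00000027878, chromosome 3, 98013527 to 98150361, plus strand) was likewise highest in stem-like cells among the epithelial classes, at lower UMI counts. Stem-like cells were at 23.5 and 27.5 CPM, cycling progenitor-like cells at 16.2 and 16.8, and the other 5 epithelial classes fitted at 1.26 to 7.29. The log2 ratio to stem-like cells was -0.52 ± 0.14 in cycling progenitor-like cells (edgeR, adjusted p = 0.00547), -2.20 ± 0.18 in enterocyte-like cells, -1.92 ± 0.24 in early secretory-like cells, -3.21 ± 0.33 in goblet-like cells, -1.44 ± 0.34 in Paneth-like cells and -3.14 ± 0.44 in enteroendocrine-like cells. All 6 were called. With every cell thinned to 2000 UMIs, the calls in cycling progenitor-like, early secretory-like, Paneth-like and enteroendocrine-like cells were lost (adjusted p of 1, 0.077, 0.35 and 0.10), and the enteroendocrine-like value rests on 4 and 1 UMIs. Lymphocyte-like cells carried 28.8 and 33.2 CPM of Notch2, a log2 ratio of 0.14 (adjusted p = 0.615).

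**Figure D1:**
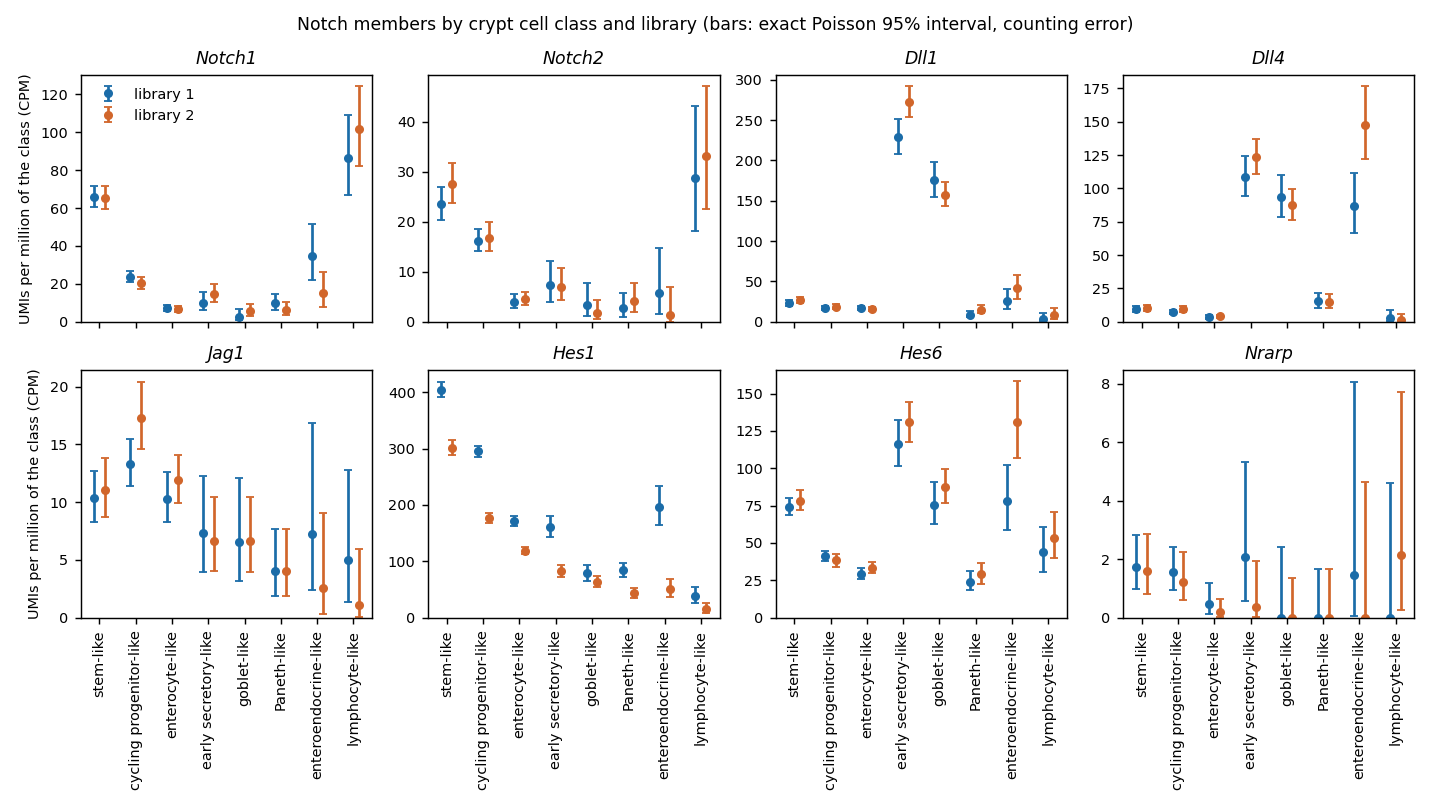
Level of each member in CPM (vertical axis, starting at 0 and scaled for each gene) by cell class (horizontal axis), with 1 point per library and bars for the exact Poisson 95% interval of counting error. Dll1 and Dll4 were highest in secretory classes, whereas Notch1, Notch2 and Hes1 were highest in stem-like cells among the epithelial classes.

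Of the ligands, Dll1 (ENSMUSG00000014773, chromosome 17, 15367354 to 15376872, minus strand) was concentrated in early secretory-like and goblet-like cells. It stood at 229 and 272 CPM in early secretory-like cells and at 176 and 158 CPM in goblet-like cells, against 23.2 and 26.6 CPM in stem-like cells. The log2 ratio to stem-like cells was 3.26 ± 0.13 in early secretory-like cells, or 9.57-fold (edgeR, adjusted p = 5.72e-17), and 2.95 ± 0.14 in goblet-like cells, or 7.74-fold (adjusted p = 4.46e-16). Across every setting tried, the early secretory-like ratio stayed between 3.18 and 3.49 and the goblet-like ratio between 2.69 and 3.27. Cells past both the stem threshold and that of Atoh1, Spdef, Gfi1 and Neurog3 were left out of the stem-like reference. How far this moved the ratios of Dll1 and Dll4 was not tested on its own. The early secretory-like class held 27.2% and 36.7% of all Dll1 UMIs and 3.97% and 6.13% of all UMIs.

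The other classes carried little Dll1. Enteroendocrine-like cells were at 26.0 and 41.5 CPM, cycling progenitor-like cells at 17.0 and 18.6, enterocyte-like cells at 16.9 and 16.2 and Paneth-like cells at 8.94 and 14.9, and none of these 4 passed the test against stem-like cells (adjusted p between 0.0508 and 0.48). The cycling progenitor-like ratio of -0.38 lay at the threshold and passed it in several settings, among them RLE size factors (-0.43, adjusted p = 0.029). Lymphocyte-like cells were at 3.75 and 8.56 CPM, a log2 ratio of -2.11 (adjusted p = 2.97e-05). Tuft-like cells, too few for the fit at 26 and 58 cells, were at 68.3 and 47.3 CPM, from 15 and 21 UMIs. Set against early secretory-like cells in place of stem-like cells, a reference chosen after the data were seen, Dll1 was lower in Paneth-like cells by a log2 ratio of -2.85 ± 0.20 (19.4% of all genes passed) and in enteroendocrine-like cells by -3.03 ± 0.20 (37.6%), and in goblet-like cells (27%) it was at -0.31 with an adjusted p of 0.0669.

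Dll4 (ENSMUSG00000027314, chromosome 2, 119325784 to 119335962, plus strand) was high in the same classes as Dll1 and in enteroendocrine-like cells as well. It stood at 108 and 123 CPM in early secretory-like cells, 93.4 and 87.3 in goblet-like cells and 86.8 and 147 in enteroendocrine-like cells. Stem-like cells were at 9.41 and 10.0 CPM, cycling progenitor-like cells at 7.17 and 9.44, enterocyte-like cells at 3.31 and 4.05 and lymphocyte-like cells at 2.50 and 1.07. Tuft-like cells, which were not fitted, held 0.77% and 1.45% of Dll4 UMIs and 0.45% and 0.95% of all UMIs. The log2 ratio to stem-like cells was 3.49 ± 0.16 (11.2-fold), 3.41 ± 0.17 (10.6-fold) and 3.36 ± 0.20 (10.3-fold) in early secretory-like, goblet-like and enteroendocrine-like cells, each with an edgeR adjusted p of at most 1.28e-13. Neither of the other 2 classes was called against early secretory-like cells. Against early secretory-like cells, goblet-like cells were at -0.08 ± 0.14 (adjusted p = 0.728) and enteroendocrine-like cells at -0.13 ± 0.16 (adjusted p = 0.578). Enterocyte-like cells were lower than stem-like cells, at -1.04 ± 0.23 (adjusted p = 0.000239), a call that was lost with marker thresholds raised 2 times (-0.44) and with thinning (-0.39). The ratio in lymphocyte-like cells, -2.62, rests on 2 and 1 UMIs and was not called with thresholds 2 times higher or lower.

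Paneth-like cells depended on the scaling. Their total is dominated by defensin and lysozyme RNA, and scaling by total UMIs in place of TMM (trimmed mean of M-values, which sets aside the most abundant and most changed genes) moved the median of all genes in that contrast by -1.47 on the log2 scale and the share of higher calls among all calls from 48.7% to 5.37%. Dll4 in Paneth-like cells was at 15.2 and 14.9 CPM, and its log2 ratio to stem-like cells was 2.09 ± 0.26 with TMM (4.27-fold, adjusted p = 4.18e-07) and 0.62 with total UMIs (adjusted p = 0.0228), higher under both. Dll1 was at 0.41 with TMM, not called, and at -1.06 with total UMIs (adjusted p = 0.000121). Hes6 was at -0.05 with TMM and at -1.53 with total UMIs. Notch1 (-3.02), Notch2 (-2.91) and Hes1 (-2.51) were lower in Paneth-like cells under total UMIs as under TMM. Paneth-like cells also held the stem marker Lgr5 at 51.9 and 26.2 CPM, against 178 and 172 in stem-like cells and at most 18.6 in the other classes fitted; its part in these values was not tested.

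In the other contrasts, the share of higher calls among all genes called moved by over 10 percentage points with total UMIs in cycling progenitor-like cells (59.8% to 43.2%), enterocyte-like cells (48.7% to 32.4%), goblet-like cells (45.5% to 33.2%) and enteroendocrine-like cells (46.3% to 62.3%). With RLE (relative log expression) size factors it moved to 52.3% from 41.0% in early secretory-like cells, to 59.3% in enteroendocrine-like cells and to 53.2% from 43.0% in lymphocyte-like cells. No member call of the 37 changed direction with either.

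Jag1 (ENSMUSG00000027276, chromosome 2, 137081456 to 137116644, minus strand) had a different pattern from Dll1 and Dll4. It was highest in cycling progenitor-like cells, at 13.3 and 17.3 CPM, followed by enterocyte-like cells at 10.3 and 11.9 and stem-like cells at 10.3 and 11.04, the last pair overlapping. Early secretory-like cells were at 7.29 and 6.66 CPM and goblet-like cells at 6.57 and 6.63, below stem-like cells in both libraries and not called (log2 ratios of -0.72 and -0.49, edgeR adjusted p of 0.0524 and 0.183). The log2 ratio to stem-like cells was 0.59 ± 0.17 in cycling progenitor-like cells (adjusted p = 0.00831) and 0.41 ± 0.18 in enterocyte-like cells (adjusted p = 0.0431). Both calls were lost with DESeq2, which gave an adjusted p of 0.11 for each, and with total UMIs the enterocyte-like ratio was 0.05. Enteroendocrine-like cells were called lower, at -1.41, from 5 and 2 UMIs, and the call was lost with DESeq2 (adjusted p = 0.087).

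**Figure D2:**
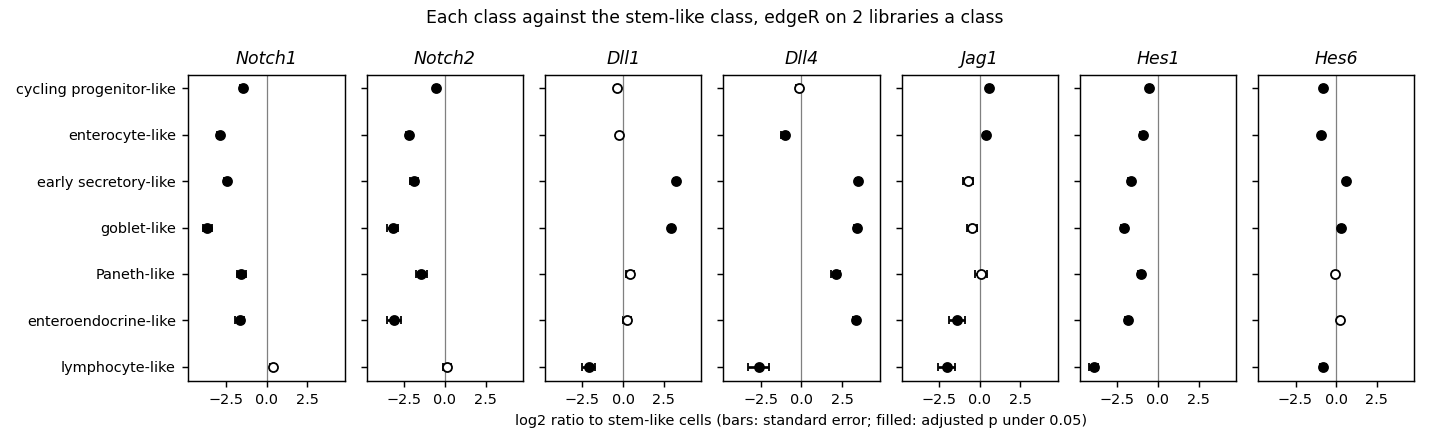
Log2 ratio of each class to the stem-like class (horizontal axis) for the 7 members that passed the filter on low counts, with bars for the standard error of the edgeR fit and filled points for an adjusted p under 0.05. Dll1 was higher in early secretory-like and goblet-like cells, Dll4 was higher in all 4 secretory classes, and Hes1 was lower in all 7 classes.

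The 2 delta-like ligands were often found in the same cells. In early secretory-like cells 71.0% and 81.5% of cells had a Dll1 UMI and 57.9% and 66.8% had a Dll4 UMI, against 1.07% and 1.72% (Dll1) and 0.71% and 0.43% (Dll4) of the shallower lymphocyte-like cells. With each cell thinned to 2000 UMIs, the Dll1 shares were 32.8% and 44.4% in early secretory-like cells, 28.3% and 22.8% in goblet-like cells, 3.50% and 5.10% in stem-like cells and 0.48% and 0% in lymphocyte-like cells. The Dll4 shares so thinned were 20.1% and 18.9%, 18.2% and 16.1%, 1.83% and 0.20%, and 0.48% and 0% in the same order. Of early secretory-like cells with Dll1, 69.9% and 74.4% also had Dll4, and of those with Dll4, 85.7% and 90.8% also had Dll1. In enteroendocrine-like cells the overlap was lopsided: 60.0% and 72.2% of Dll1 cells had Dll4, and 32.1% and 25.5% of Dll4 cells had Dll1. In Paneth-like cells 20% and 16.7% of the cells with Dll4 had Dll1. Cells deep enough to show 1 ligand show the other more readily, so these shares describe detection.

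Among the targets, Hes1 (ENSMUSG00000022528, chromosome 16, 30064384 to 30067796, plus strand) was highest in stem-like cells among all classes. It stood at 405 and 302 CPM in stem-like cells, 295 and 177 in cycling progenitor-like cells, 171 and 119 in enterocyte-like cells, 161 and 82.0 in early secretory-like cells, 78.2 and 63.7 in goblet-like cells, 84.1 and 43.3 in Paneth-like cells, 197 and 50.4 in enteroendocrine-like cells and 37.5 and 14.98 in lymphocyte-like cells. Stem-like cells were the highest class in each library. The log2 ratio to stem-like cells was -0.52 ± 0.14 in cycling progenitor-like cells (edgeR, adjusted p = 0.0062), -0.93 ± 0.14 in enterocyte-like cells (adjusted p = 2.23e-06), -1.67 ± 0.16 in early secretory-like cells (adjusted p = 4.97e-09), -2.07 ± 0.18 in goblet-like cells (4.19-fold lower, adjusted p = 1.56e-10), -1.05 ± 0.18 in Paneth-like cells and -1.84 ± 0.20 in enteroendocrine-like cells. All 7 classes were called lower, and the call in cycling progenitor-like cells was lost with DESeq2 (adjusted p = 0.16). In early secretory-like cells the ratio was -2.32 with higher and -1.10 with lower marker thresholds. Against early secretory-like cells, Hes1 was higher in Paneth-like cells by 0.62 ± 0.21 with TMM (edgeR, adjusted p = 0.0336). By CPM the direction was the opposite in both libraries, at 84.1 and 43.3 in Paneth-like against 161 and 82.0 in early secretory-like cells. The direction therefore depends on the scaling of that class.

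Hes6 (ENSMUSG00000067071, chromosome 1, 91411483 to 91414038, minus strand) was highest in early secretory-like and enteroendocrine-like cells, whose levels overlapped. It stood at 116 and 131 CPM in early secretory-like cells, 78.1 and 131 in enteroendocrine-like cells, 75.6 and 87.7 in goblet-like cells and 74.0 and 78.3 in stem-like cells, and between 24.1 and 41.2 in Paneth-like, enterocyte-like and cycling progenitor-like cells. The log2 ratio to stem-like cells was 0.62 ± 0.12 in early secretory-like cells (1.54-fold, edgeR, adjusted p = 0.000239), and 0.32 ± 0.13 in goblet-like cells (adjusted p = 0.0429), the latter call being lost with total UMIs (0.10). In enteroendocrine-like cells it was at 0.24 (adjusted p = 0.236), which passed with RLE size factors (0.43, adjusted p = 0.032). It fell by 0.83 in cycling progenitor-like cells and by 0.92 in enterocyte-like cells on the log2 scale (adjusted p of 4.35e-06 and 1.43e-07). Lymphocyte-like cells carried Hes6 at 43.8 and 53.5 CPM, so they are no background for this gene.

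Nrarp (ENSMUSG00000078202, chromosome 2, 25180758 to 25183339, plus strand) was the scarcest member, with 49 and 28 UMIs in all kept cells, and it did not pass the filter on low counts. Stem-like cells held 15 and 11 of these UMIs and cycling progenitor-like cells 20 and 10, or 1.72 and 1.60 CPM and 1.56 and 1.23 CPM. Goblet-like and Paneth-like cells held none in either library. At that depth, 3 counts would be 1.97 and 1.11 CPM in goblet-like cells and 1.34 and 1.35 CPM in Paneth-like cells, close to the stem-like levels. In the fit without the filter, enterocyte-like cells were lower than stem-like cells by a log2 ratio of -2.01 ± 0.79 (edgeR, adjusted p = 0.0257), from 4 and 2 UMIs. That fit also called goblet-like cells lower (adjusted p = 0.0401), where neither library had a UMI, so no fold is given.

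In all, 37 of the 49 tests of a member in a class were called. Early secretory-like and goblet-like cells each had 3 members higher (Dll1, Dll4 and Hes6) and 3 lower (Notch1, Notch2 and Hes1) of 7, against 13.8% higher and 19.9% lower of all genes in early secretory-like cells and 24.5% and 29.4% in goblet-like cells. Enteroendocrine-like cells had 1 higher and 4 lower, against 22% and 25.5% of all genes. Paneth-like cells had 1 higher and 3 lower, against 18.3% and 19.2%, and cycling progenitor-like cells 1 higher and 4 lower, against 18.7% and 12.6%. Enterocyte-like cells had 1 higher and 5 lower. In enterocyte-like cells, where 33% of all genes were higher and 34.7% lower, 6 of 7 called is near what the whole table shows. Lymphocyte-like cells had no member higher and 5 lower, with 25.6% and 34% of all genes.

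Cells with and without a ligand UMI were compared within a class, as a description with counting intervals and no test, since cells of 1 library share their source. No share of all genes was computed for these comparisons, so whether other genes differ as much is not known. Cells with a ligand UMI were deeper, for example 13191 against 4237 UMIs (medians) for Dll1 in early secretory-like cells of library 1. Hes1 was lower in Dll4-positive than in Dll4-negative Paneth-like cells in both libraries. It stood at 58.1 against 90.6 CPM in library 1 (ratio 0.64, interval 0.41 to 0.97) and at 22.2 against 50.1 CPM in library 2 (0.44, 0.22 to 0.82), from 25 and 30 positive cells. Thinning left under 10 Dll4-positive cells in that class and so gave no value. In early secretory-like cells the Hes1 ratio between Dll1-positive and Dll1-negative cells was 0.78 (0.59 to 1.03) and 0.77 (0.53 to 1.16), and 0.49 (0.18 to 1.15) and 0.95 (0.50 to 1.80) with each cell thinned to 2000 UMIs, intervals that include 1. For Dll4 in the same class it was 0.93 and 0.76 at full depth, with intervals that include 1, and 0.36 (0.071 to 1.15) and 0.20 (0.024 to 0.79) when thinned, from 3 and 2 UMIs in the positive cells. Jag1-positive stem-like cells had Hes1 ratios of 0.97 and 0.95 at full depth and of 0.47 (0.19 to 0.98) and 0.13 (0.0034 to 0.76) when thinned, from 16 and 13 positive cells. Goblet-like cells gave ratios of 1.04 and 0.81 for Dll1, and stem-like cells 0.98 and 1.15. In enteroendocrine-like cells the libraries went opposite ways for Dll4, at 0.61 (0.43 to 0.88) and 1.15 (0.56 to 2.56). Hes6 was higher in Dll1-positive early secretory-like cells of library 1, at 125 against 73.6 CPM (1.70, 1.12 to 2.69), and at 131 against 126 CPM in library 2 (1.04, 0.75 to 1.49). When thinned, the ratios were 1.93 (0.94 to 3.97) and 1.21 (0.69 to 2.11).

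**Figure D3:**
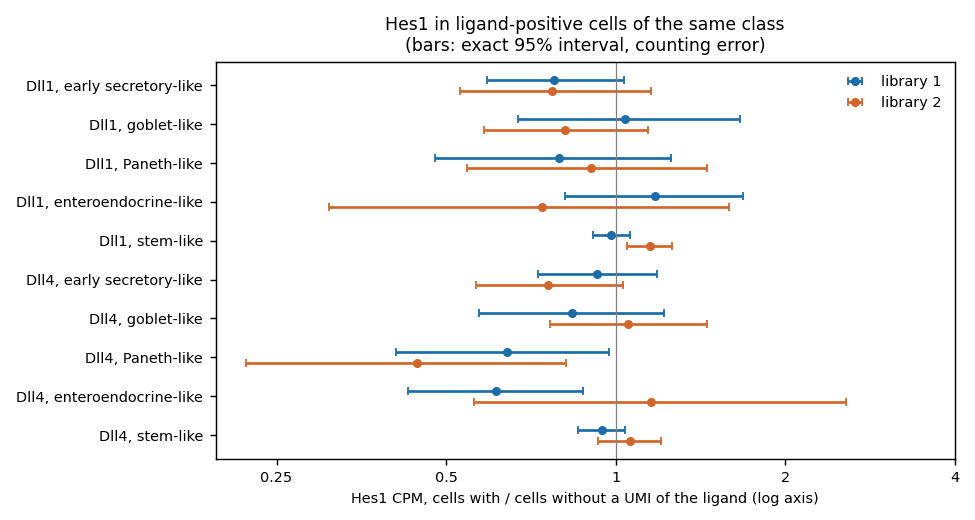
Ratio of Hes1 CPM in cells with a UMI of the ligand to cells without one (horizontal log axis) for Dll1 and Dll4 in 5 classes (rows), with 1 point per library and bars for the exact 95% interval of counting error. The Dll4 ratio in Paneth-like cells lay below 1 with its interval in both libraries, and the other intervals include 1 except those of Dll4 in enteroendocrine-like cells of library 1 and of Dll1 in stem-like cells of library 2.

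Within stem-like cells, those with cell cycle UMIs at the class threshold were set against the rest. Dll1 was lower in the cycling stem-like cells, at 19.8 against 27.9 CPM in library 1 (ratio 0.71, 0.53 to 0.94) and at 17.9 against 40.1 CPM in library 2 (0.45, 0.33 to 0.61). Hes1 was at 401 against 410 CPM and at 294 against 314 CPM, with ratios of 0.98 and 0.93. Notch1 ratios were 1.12 and 0.96. Dll4 ratios were 0.93 and 0.70 with intervals that include 1. Dll1 was thus the 1 member of these 4 whose interval lay below 1 in both libraries.

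Between the libraries, Hes1 was lower in library 2 in all 8 classes. The ratio of library 2 to library 1 was 0.75 (0.71 to 0.79) in stem-like cells and 0.60 (0.56 to 0.64) in cycling progenitor-like cells. It was 0.70 (0.65 to 0.75) in enterocyte-like cells and 0.51 (0.43 to 0.61) in early secretory-like cells. Goblet-like cells were at 0.81 (0.64 to 1.04) and Paneth-like cells at 0.52 (0.40 to 0.66). Enteroendocrine-like cells were at 0.26 (0.18 to 0.37) and lymphocyte-like cells at 0.40 (0.20 to 0.78). Genes with an interval excluding 1 and a change of 1.5-fold or more were described as apart, and Hes1 was apart in 5 classes. Of all genes measured, 4.45% were apart in stem-like cells, 6% in enterocyte-like, 4.78% in goblet-like, 5.37% in cycling progenitor-like cells, 5.86% in early secretory-like, 9% in Paneth-like, 14.6% in enteroendocrine-like and 13% in lymphocyte-like cells. With thinning, the early secretory-like ratio moved to 0.84 and the lymphocyte-like ratio to 0.93. With 1 library per group there is no test, and animals within a pool cannot be told apart.

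Immediate early genes, which respond within minutes to stimuli that include tissue dissociation, were also lower in library 2 in most classes. Fos was at 1121 and 614 CPM in stem-like cells (ratio 0.55) and lower in library 2 in all 8 classes, with ratios of 0.42 to 0.89. Jun had ratios of 0.44 to 0.79. Egr1 had ratios of 0.40 in cycling progenitor-like cells to 1.06 in enteroendocrine-like cells, and Ier2 of 0.59 to 1.10. Their part in the Hes1 values was not tested. The enteroendocrine-like class also held more stem RNA in library 1, with Olfm4 at 1003 and 330 CPM and the 6 stem markers together at 1257 and 544 CPM, and the 12 cell cycle markers at 1278 and 433 CPM. Paneth-like cells showed a shift in the same direction, with Olfm4 at 1049 and 579 CPM, Lgr5 at 51.9 and 26.2 CPM and the 6 stem markers together at 1252 and 728 CPM. In lymphocyte-like cells, 4 and 3 of the 6 myeloid markers were detected, summing to 2589 and 816 CPM, and the cell cycle markers summed to 1353 and 2862 CPM. In the enteroendocrine-like class Notch1 (34.7 and 15.1 CPM, ratio 0.44) was lower in library 2, and Dll4 (ratio 1.70, 1.23 to 2.36) and Hes6 (ratio 1.68, 1.19 to 2.37) were higher. A sum over the lymphocyte-like class does not show whether myeloid cells were among them. The part of the RNA of the stem, cycle and myeloid markers in these values and in the Hes1 values of these 3 classes was not tested.

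**Figure D4:**
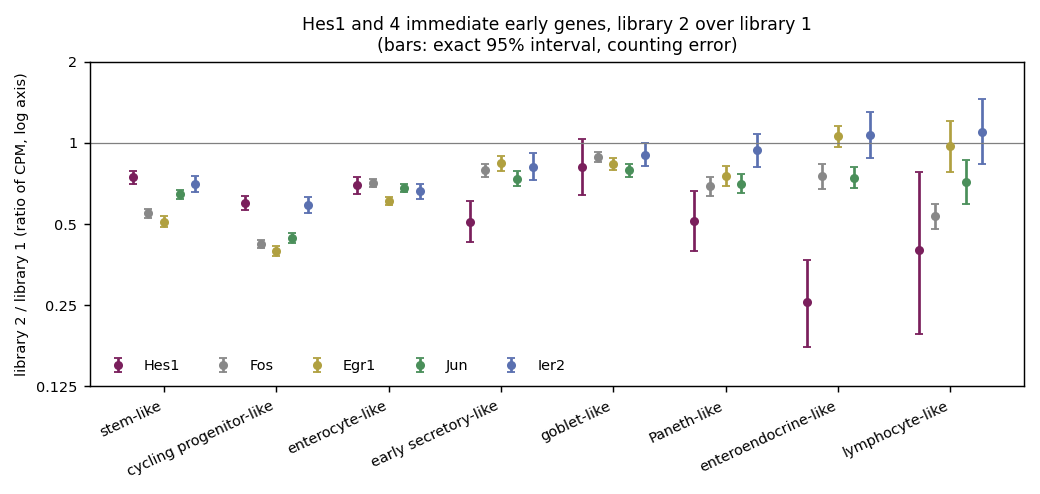
Ratio of CPM in library 2 to library 1 (vertical log axis) for Hes1 and the immediate early genes Fos, Egr1, Jun and Ier2 by cell class (horizontal axis), with bars for the exact 95% interval of counting error. Hes1 lay below 1 in all 8 classes, from 0.26 in enteroendocrine-like cells to 0.81 in goblet-like cells, and Fos lay below 1 in all 8 as well.

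The other members differed little between the libraries in the larger classes. No member was apart in stem-like, enterocyte-like or goblet-like cells. Dll1 in early secretory-like cells was at 229 and 272 CPM and Notch1 in stem-like cells at 66.0 and 65.5 CPM. Of the 8 cases of a member apart in a class, 5 were Hes1 and the other 3 were Notch1, Dll4 and Hes6 in enteroendocrine-like cells.

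Other genes of the pathway were taken from a list of 62, of which 50 passed the filter on low counts. The counts called higher and lower were 6 and 9 in cycling progenitor-like cells, 14 and 17 in enterocyte-like cells, 12 and 9 in early secretory-like cells, 11 and 10 in goblet-like cells, 12 and 11 in Paneth-like cells, 12 and 8 in enteroendocrine-like cells and 21 and 7 in lymphocyte-like cells. The list includes Atoh1, Spdef, Gfi1 and Neurog3, which set the early secretory-like class. The share called lay between 30% and 62% by contrast, and that of all genes between 31.3% and 67.7%. The median log2 ratio of the list was 0.04 in early secretory-like cells, against -0.12 for all genes, and -0.26 in enterocyte-like cells, against -0.04.

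Of the glycosyltransferases that modify the receptor, Lfng (lunatic fringe) was at 26.6 and 25.4 CPM in stem-like cells and 54.1 and 67.3 CPM in early secretory-like cells, a log2 ratio of 1.16 ± 0.14 (edgeR, adjusted p = 3.34e-07). It was higher in lymphocyte-like cells as well (2.12), and lower in cycling progenitor-like (-1.43), enterocyte-like (-3.04) and enteroendocrine-like cells (-1.33). Pofut1 and Poglut1, which add the O-linked sugars to the receptor, were lower in early secretory-like cells (-0.94 and -0.88) and in goblet-like cells (-0.70 and -0.94). Both were also lower in enterocyte-like (-0.63 and -1.35), Paneth-like (-0.69 and -0.72), enteroendocrine-like (-0.89 and -0.71) and lymphocyte-like cells (-0.68 and -0.59). In cycling progenitor-like cells Poglut1 was lower (-0.50) and Pofut1 was not called (-0.28). Rfng was higher in enterocyte-like (1.04), goblet-like (0.68) and Paneth-like cells (1.38). All ratios and calls of the pathway list in Paneth-like cells, here and below, are with TMM. Total UMIs in its place moved the median of all genes in that contrast by -1.47 on the log2 scale. Values of the list under total UMIs are not given here.

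Of the cleavage genes, Ncstn (nicastrin) was higher in enterocyte-like cells (0.87). The sheddase Adam10 was lower in Paneth-like (-1.19) and enteroendocrine-like cells (-0.82). Of the ubiquitin ligases, Dtx4 was lower in all 6 epithelial classes (-0.90 to -2.06), and Neurl3 was higher in enterocyte-like cells (1.77) and Itch in goblet-like cells (0.88). Neurl1b was higher in enterocyte-like (1.57) and cycling progenitor-like cells (0.84), and Dner, a ligand-like transmembrane protein of neurons, in enteroendocrine-like cells (8.18, against 0.2 and 0 CPM in stem-like cells).

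Among other targets, Hes2 was higher in enterocyte-like cells (3.99) and Heyl in lymphocyte-like (7.72) and Paneth-like cells (3.43), both nearly without UMIs in stem-like cells. Of the secretory factors downstream, Sox4 was lower in goblet-like cells (-3.17) and enterocyte-like cells (-4.64) and was at 239 and 227 CPM in stem-like cells. Atoh1, Spdef, Gfi1 and Neurog3 set the early secretory-like class, and their ratios there are no finding. Cells past the threshold of these factors were also moved out of the stem-like class, which lowers them in the reference. Against it, Atoh1 was higher by 6.18 and Spdef by 6.25 in goblet-like cells, and by 4.36 and 4.40 in Paneth-like cells. The sizes of these ratios are therefore raised by the class rule. In the nuclear complex, Kat2a was lower in enterocyte-like (-1.52) and goblet-like cells (-1.21), and Ep300 was lower in early secretory-like cells (-0.41).

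The genes most like each member were sought by Pearson's correlation of log2(CPM + 1) over the 16 sums of class and library, among 9451 genes, as a description without a p; sums of 1 library share its depth. Dll1 was most like Pdia5 (0.97), Txndc5, Ampd3, Hdlbp and Rassf6, the first 2 being protein disulphide isomerases of the secretory pathway. Dll4 was most like Gm609 (0.96), Rnf39, Arfgef3, Rab15 and Fxyd3. Hes1 was most like Sdc4 (0.97), Tcaf2, Ppp1r1b, Map3k21 and Id1. Notch1 and Notch2 had the same nearest gene, Jaml (0.95 and 0.94). Jag1 was nearest to Oxnad1 (0.94), Hes6 to Amer1 (0.94) and Nrarp to Ska1 (0.87).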

How the data were processed

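Single-cell libraries of duodenal crypts were made from 2 pools of 5 animals, per the labels' protocols, after EDTA and TrypLE dissociation. The authors deposited raw UMI counts per gene and barcode as 1 matrix. The submitters' processing notes list Cell Ranger 2.1.1 and the build mm10. Strand use, read filters and cell calling are not given in the sources used here. Barcodes of 27 bases do not match the length used by the Chromium V3 kit that the labels name, so the chemistry is not settled. The number that ends each barcode was taken as the library.

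Counts of 43 shared symbols were merged. Of 12756 barcodes, 7784 with at least 500 genes and at most 25% mitochondrial UMIs were kept. Marker thresholds for classes were set after seeing their distributions. Cells past more than 1 threshold of the stem, enterocyte, goblet, Paneth, enteroendocrine, tuft and lymphocyte lists (236) were left out. This is how doublets were treated, and no doublet caller was run. The early factor and cell cycle thresholds did not count here. Stem-like cells past the cell cycle threshold were kept, and stem or goblet-lineage cells past the early factor threshold could enter the early secretory-like class. A further 1311 cells lay below every threshold and 194 between the goblet thresholds. An early secretory-like cell may rest on 1 UMI of an early factor. CPM is UMIs per 1000000 UMIs of a class. UMI sums per library and class of at least 50 cells were fitted with edgeR 4.0.16 (TMM, quasi-likelihood test, library and class as terms, residual degrees of freedom 7, Benjamini-Hochberg adjustment over 12286 genes, threshold 0.05), tested first on simulated data. DESeq2 1.42.0 and other settings are alternatives. Exact 95% intervals cover counting error only. Library ratios and likeness use at least 20 and 200 UMIs. The named genes are all 8 members, of the pathway list the 2 highest and 2 lowest called per contrast and up to 3 per role with the most UMIs, and the 5 genes most like each member. The text names those that illustrate each role. Members and lists were chosen with earlier results of these data known. Gene positions are from GENCODE M21 (GRCm38). A result for 1 gene of the pathway list is not reported here.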

Additional observations from a re-analysis of the deposited data

How the results depend on the processing

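The count of member tests called, 37 of 49, ranged from 27 with each cell thinned to 2000 UMIs to 43 with no cell filter. Of the 37 calls, 25 held under every setting that gave a value, 12 lost the threshold under at least 1, and 0 changed direction. Tests that were not called changed direction in 8 cases. Dll1 moved to 0.075 in cycling progenitor-like and 0.033 in enterocyte-like cells and Dll4 to 0.80 in cycling progenitor-like cells with marker thresholds 2 times higher, and Dll4 to 0.95 there with thinning. In Paneth-like cells, total UMIs gave -1.06 for Dll1 and -1.40 for Jag1. Jag1 there was -0.047 with higher thresholds, -0.13 with mixed cells assigned and -0.38 with a stem class set without Olfm4, and Hes6 was 0.015 with DESeq2, 0.016 with RLE size factors, 0.023 with higher thresholds, 0.045 with mixed cells assigned and 0.26 without Olfm4. Leaving out a library left Hes6 in Paneth-like cells at -0.17 to 0.057, and Dll1 and Hes6 in enteroendocrine-like cells at -0.061 to 0.41 and -0.15 to 0.51; with 1 library left there is no test. The 8 cases of a member apart between libraries became 5 with a stricter cell filter and 4 with thinning. The 9 cases of a target apart between ligand-positive and ligand-negative cells compare with 4 with thinning, none of them among the 9. No share of all genes apart was computed beside these counts, so they are not read as a result about the members. With thinning Notch2 in Dll1-positive stem-like cells of library 1 turned to 1.10 and Hes6 in Dll4-positive early secretory-like cells to 0.82. The share of early secretory-like cells with Dll1 moved to 32.8% and 44.4% with thinning. The stricter cell filter and the stem class without Olfm4 left too few enteroendocrine-like cells, and thresholds 2 times lower too few Paneth-like cells, to give values. Early secretory-like as reference, leaving out the lymphocyte-like class and leaving out shared barcodes were chosen after seeing the data. Every class contrast was made within libraries, which are a term of the fit. The treatment groups have no replicates to pair. Scarce members, Nrarp above all, are limited by depth.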
